A study of Mus musculus with 12 samples.

Results

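The genes described here were the Hox genes of the mouse and 4 further transcription factors that mark position in the body, as read by RNA-seq of inguinal white adipose tissue (iWAT). They were chosen by name from the table of raw counts: every gene of the HoxA, HoxB, HoxC and HoxD clusters with a numbered paralog group, plus En1, Tbx3, Tbx15 and Shox2. This gave 43 of 54134 genes, of which 39 were Hox genes. The mice were male C57BL/6J, injected in the tail vein at 8 weeks of age with adeno-associated virus (AAV) of serotype 8, and iWAT was taken at 12 weeks of age after 4 weeks on chow and a 4 h fast. In 6 mice the virus carried GFP (AAV-GFP), and in 6 it carried mouse Notum (AAV-Notum), both driven by the liver-specific human thyroxine binding globulin promoter. NOTUM is a secreted enzyme that inactivates Wnt ligands, and the question was how iWAT differs when the liver makes more of it. iWAT was therefore not the tissue in which the vector was meant to be expressed.

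Hox genes encode homeodomain transcription factors and lie in the clusters in the order in which they are used along the body axis. Genes at the same place in different clusters form a paralog group, with low numbers used from the hindbrain backwards and high numbers towards the tail and the ends of the limbs. Adult stromal cells and fat depots keep much of the Hox pattern of the place they came from. En1 encodes a homeobox factor of the ventral limb and of part of the dermis, Tbx3 and Tbx15 encode T-box factors of limb, trunk and subcutaneous fat, and Shox2 encodes a homeobox factor of the proximal limb.

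Total counts per library ranged from 14711113 to 21618860. RNA integrity numbers of the AAV-GFP mice were 5.7 to 7.6 and those of the AAV-Notum mice 6.9 to 7.4. The RNA of AAV-GFP-2012 was isolated 22 days after collection and that of the other mice after 2 days. AAV-GFP-2011 and AAV-GFP-2014 stood apart in 15 lymphoid markers, whose summed level was 16.8 and 9.95 counts per 1e6 reads (CPM) against 318 to 2388 CPM in the other 10 mice. The 8 adipocyte markers summed to between 21136 and 48031 CPM in every library. Notum had 1 to 17 reads in AAV-GFP and 8 to 560 reads in AAV-Notum, so the ranges overlapped, and in iWAT the gene did not separate the groups.

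Of the 39 Hox genes, 25 passed the filter on low counts (edgeR filterByExpr with a minimum count of 10), and with the 4 other genes 29 of the 43 members were tested. The 14 that did not pass were all Hox genes. No read was found in any mouse for Hoxa13, Hoxb1, Hoxc12, Hoxc13, Hoxd4, Hoxd12 and Hoxd13, which allows a level of up to 0.0143 CPM over the 12 libraries (3 counts, counting error only). Hoxa11 had 4 reads, Hoxb13 had 3, Hoxd1 had 2 and Hoxd11 had 1. Hoxc11 had 36 reads in 10 of the 12 mice. Hoxd3 had 71 reads and Hoxd10 had 112 reads, each with a read in every mouse. Of exon bases in Hoxd4, 52.3% are shared with other genes on the same strand, so its 0 may depend on how such reads were assigned. With 10 or more reads in total as the rule, 28 Hox genes were detected, and with at least 1 CPM in 6 mice, 25.

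iWAT thus carried Hox transcripts up to paralog group 10, with paralog group 8 at the top and almost nothing beyond group 10. Levels between genes were compared as CPM per kilobase of exon (RPKM). The summed level of paralog group 8 was 40.5 ± 11.7 RPKM (SD, n = 12) and was the highest of the 13 groups in 12 of 12 mice, with a share of 30.8% ± 2.31 of all Hox RPKM. Groups 10 and 6 followed at 18.4 ± 4.48 and 17.5 ± 4.53 RPKM, in an order that depends on the length used. Groups 9 and 7 reached 13.8 ± 3.19 and 13.6 ± 2.77 RPKM. Groups 4 and 5 were at 10.3 ± 2.35 and 9.77 ± 2.95 RPKM. The anterior groups were lower, with 3.36 ± 0.840 RPKM in group 3 and 1.96 ± 0.538 in group 2. Group 11 was at 0.0996 ± 0.0941 RPKM, and group 13 at 0.00679 RPKM came from the 3 reads of Hoxb13. Over the length of the longest transcript in place of the exon union, group 8 was again first, but group 6 at 24.4 RPKM was above group 10 at 19.5, and group 3 was at 6.15 RPKM. With recovered reads group 3 was at 2.22 RPKM. Of single members, Hoxa3 (3.91 in place of 1.68 RPKM), Hoxa9 (7.11 in place of 4.11) and Hoxc6 (20.1 in place of 13.2) were over 1.5 times higher on the longest transcript.

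**Figure D1:**
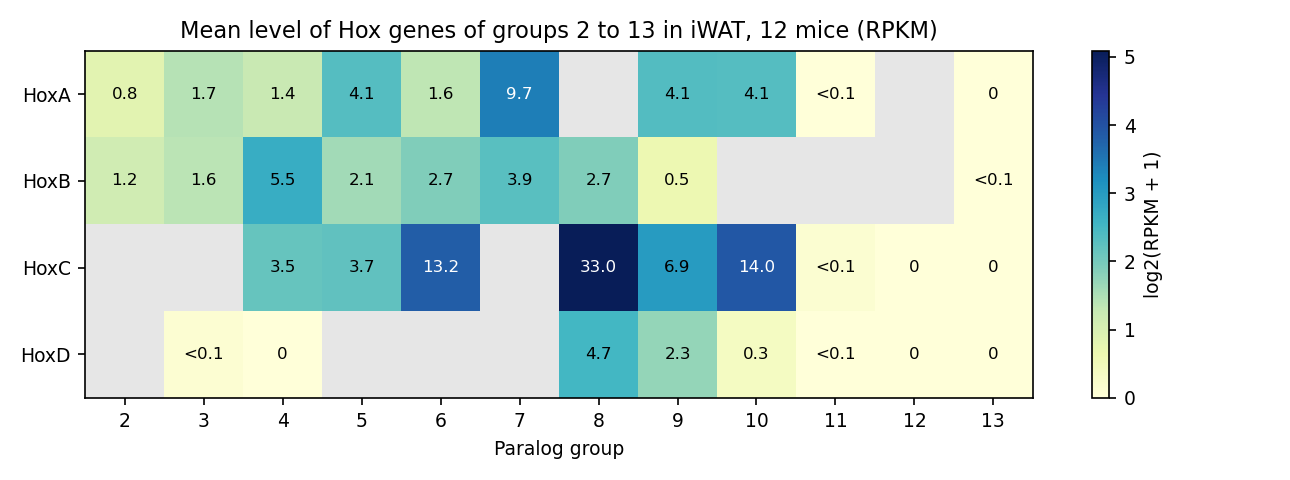
Mean level of the Hox genes of paralog groups 2 to 13 over the 12 mice in RPKM, by cluster (rows) and paralog group (columns), with colour on a log2(RPKM + 1) scale and grey where the mouse has no gene. Hoxc8 at 33.0 RPKM is the darkest field, and the columns from 11 to 13 are below 0.1 RPKM in every cluster.

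HoxC gave most of the signal. Its genes summed to 74.4 ± 20.5 RPKM (SD, n = 12), a share of 56.7% ± 2.50 of all Hox RPKM, and it was the highest cluster in 12 of 12 mice, with shares from 52.8% to 60.7%. HoxA held 21.8% ± 1.22, HoxB 15.7% ± 1.81 and HoxD 5.78% ± 1.09. The clusters did not end at the same place. In HoxC the level was 14.0 RPKM at Hoxc10 and 0.0903 RPKM at its neighbour Hoxc11, a 155-fold step. In HoxA it was 4.08 RPKM at Hoxa10 and 0.00804 RPKM at Hoxa11, the latter from 4 reads. In HoxB it was 0.537 RPKM at Hoxb9, and the next gene of the cluster, Hoxb13, had 3 reads. In HoxD, 2 of 9 genes were tested, and the level went from 2.29 RPKM at Hoxd9 to 0.287 RPKM at Hoxd10, a 7.98-fold step. On the anterior side of HoxD, Hoxd1, Hoxd3 and Hoxd4 were each below 0.1 RPKM, but 62.3% of the exon bases of Hoxd3 and 52.3% of those of Hoxd4 are shared with genes on the same strand, where reads may not have been assigned.

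**Figure D2:**
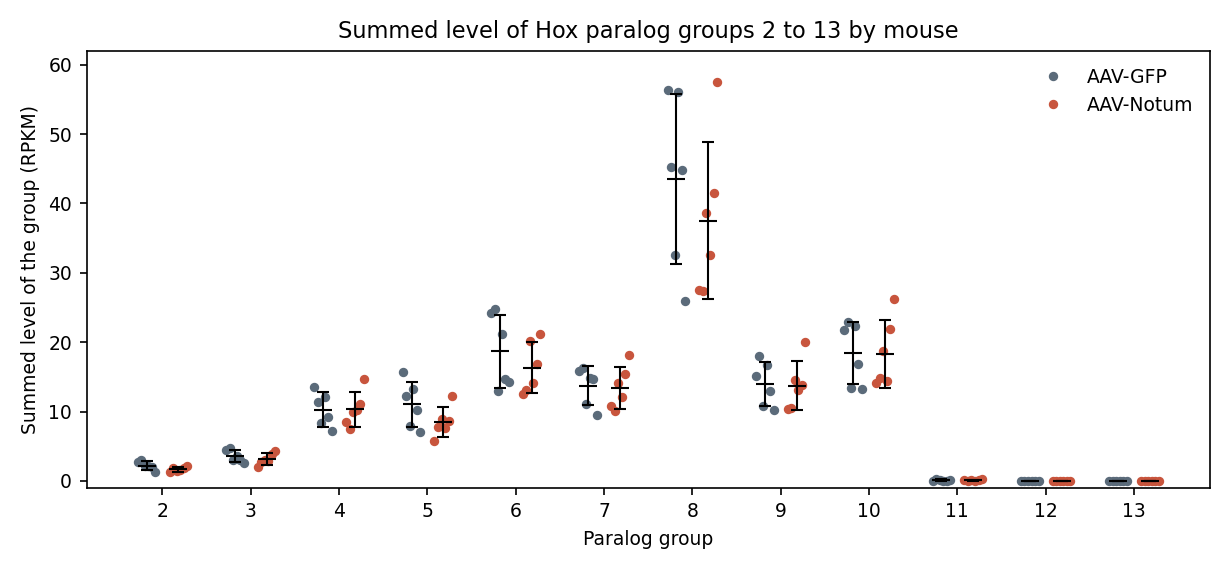
Summed level of Hox paralog groups 2 to 13 in RPKM in each mouse (points), with mean and SD of the 6 mice of each group. Paralog group 8 stands above the others in both AAV-GFP (43.5 ± 12.3) and AAV-Notum (37.5 ± 11.3), and the points of the AAV-GFP and AAV-Notum mice overlap in every paralog group.

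Among single genes, Hoxc8 was first in the order of levels and stood above the next gene, Hoxc10, in 12 of 12 mice. Hoxc8 is a central Hox gene of the thoracic trunk. It had 35.2 ± 10.9 RPKM in AAV-GFP and 30.9 ± 9.57 in AAV-Notum (SD, n = 6 here and for the levels that follow). Hoxc10, a lumbar and hindlimb gene, had 14.0 ± 3.199 and 14.1 ± 4.30 RPKM. Hoxc6 had 14.1 ± 4.12 and 12.4 ± 2.99 RPKM, and Hoxc10 was above it in 8 of 12 mice, so this pair had no clear order. Hoxa7 had 10.1 ± 2.65 and 9.29 ± 2.04 RPKM and was above the next gene, Hoxc9, in 12 of 12 mice in the raw counts, but reads recovered from the normalized table turned this order, with means of 6.83 RPKM for Hoxa7 and 8.48 for Hoxc9. Hoxc9 had 6.97 ± 1.86 and 6.85 ± 2.10 RPKM. From Hoxc9 downwards in the raw counts each gene was above its neighbour in the order in 5 to 10 of the 12 mice, and all neighbours overlapped in range, so ranks from Hoxa7 down are not firm.

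The remaining posterior genes were lower than these. Hoxa9 had 4.18 ± 1.45 RPKM in AAV-GFP and 4.04 ± 1.23 in AAV-Notum, and Hoxa10 had 4.24 ± 1.48 and 3.92 ± 0.691 RPKM. Hoxd9 had 2.25 ± 0.329 and 2.34 ± 0.323 RPKM. Hoxb9 was the lowest gene tested at 0.577 ± 0.234 and 0.496 ± 0.0872 RPKM. Of the other central genes, Hoxd8 had 5.69 ± 1.52 and 3.78 ± 1.30 RPKM, and Hoxb8 had 2.63 ± 0.406 and 2.84 ± 1.01 RPKM. Hoxb7 had 3.63 ± 0.425 and 4.13 ± 1.04 RPKM. Hoxb6 had 2.77 ± 1.03 and 2.68 ± 0.603 RPKM, and Hoxa6 had 1.83 ± 0.508 and 1.27 ± 0.381 RPKM. Within paralog group 6, then, Hoxc6 carried most of the level, as Hoxc8 did within group 8.

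Of paralog groups 4 and 5, Hoxb4 was the highest, with 5.31 ± 1.04 RPKM in AAV-GFP and 5.61 ± 1.10 in AAV-Notum. Hoxc4 had 3.71 ± 1.28 and 3.23 ± 1.16 RPKM, and Hoxa4 had 1.27 ± 0.287 and 1.47 ± 0.492 RPKM. Hoxa5 had 4.62 ± 1.53 and 3.48 ± 0.861 RPKM, Hoxc5 had 4.42 ± 1.61 and 2.90 ± 0.773 RPKM, and Hoxb5 had 1.99 ± 0.497 and 2.12 ± 0.661 RPKM. Over the exon union, the genes of paralog groups 2 and 3 were all under 2 RPKM in both groups. Hoxa3 had 1.90 ± 0.489 and 1.47 ± 0.399 RPKM and Hoxb3 had 1.58 ± 0.423 and 1.62 ± 0.513 RPKM. Hoxb2 had 1.32 ± 0.380 and 1.04 ± 0.232 RPKM, and Hoxa2 had 0.894 ± 0.319 and 0.670 ± 0.197 RPKM.

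Of the genes outside the clusters, Tbx15 was at 7.43 ± 1.93 RPKM in AAV-GFP and 6.15 ± 2.09 in AAV-Notum, and Shox2 at 7.38 ± 2.56 and 5.80 ± 1.87 RPKM. Both lay near Hoxc9 and below Hoxa7 in the raw counts. With recovered reads Tbx15 at 6.996 and Shox2 at 6.69 RPKM were close to Hoxa7 at 6.83 and below Hoxc9 at 8.48. Tbx3 was at 4.04 ± 1.24 and 3.07 ± 0.801 RPKM and En1 at 1.78 ± 0.708 and 1.13 ± 0.339 RPKM.

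The comparison of the 6 AAV-Notum with the 6 AAV-GFP mice called none of these genes. At an adjusted p under 0.05 (edgeR quasi-likelihood test, Benjamini-Hochberg over 15585 genes), 0 of the 29 tested members were lower and 0 were higher, with a background of 0.0513% and 0% of all genes, and DESeq2 also called 0, with a background of 2.58% and 0.603%. The smallest adjusted p of a member was 0.305. At an unadjusted p under 0.05, 4 of the 29 were lower in AAV-Notum, which is 13.8% beside 9.54% of all genes, and 0 were higher beside 4.64%. Their log2 fold changes ran from -0.65 to 0.20 with a median of -0.19, against a median of 0.0077 over all genes. A value below 0 was found for 21 of 29 members (72.4%) and for 48.8% of all genes. This direction did not hold in every fit, since 8 of 29 were below 0 with the mean of 15 lymphoid markers as a covariate, and 13 of 30 when AAV-GFP-2011 and AAV-GFP-2014 were both left out. In HoxA the median was -0.23 and in HoxC it was -0.19, while in HoxB it was 0.06. The 2 tested HoxD genes had a median of -0.27, from -0.59 for Hoxd8 and 0.05 for Hoxd9. No member separated the groups completely, downwards (0.693% of all genes) or upwards (0.398%). In bulk tissue, fewer cells of a type and less RNA per cell cannot be told apart. The labels name separate mice, and p-values measure the spread between them.

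**Figure D3:**
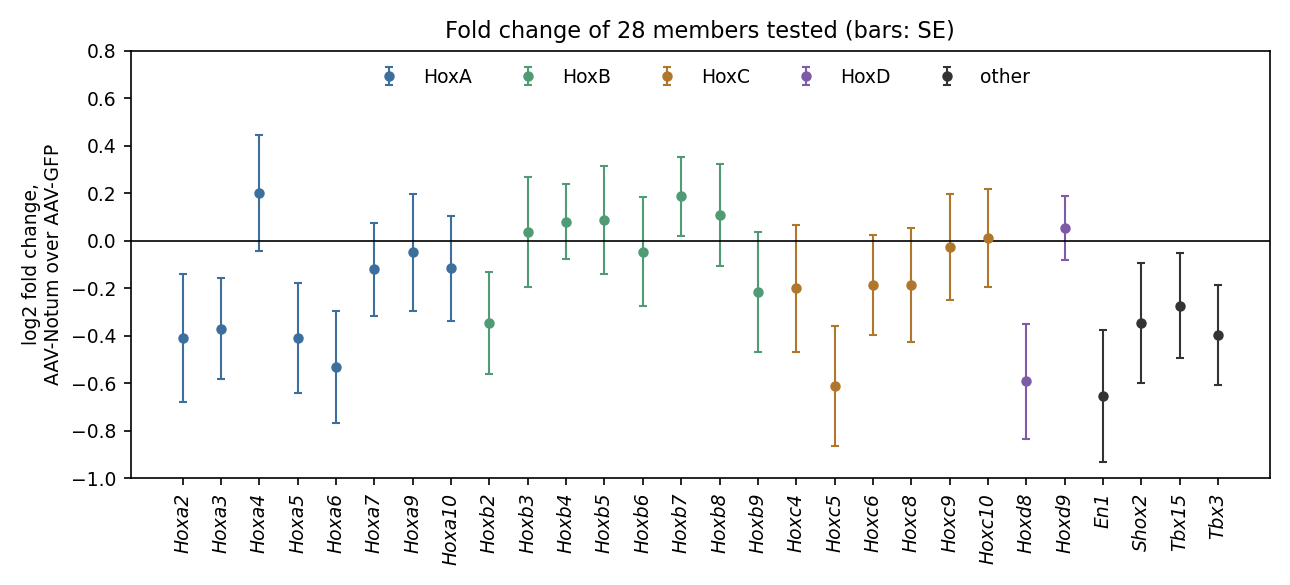
log2 fold change of AAV-Notum over AAV-GFP for 28 of the 29 members tested, with bars for the standard error, in cluster order and coloured by cluster. Values run from -0.65 for En1 to 0.20 for Hoxa4, with most HoxA and HoxC genes below 0 and HoxB genes on both sides.

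The 4 members with an unadjusted p under 0.05 were Hoxd8, Hoxc5, En1 and Hoxa6, all lower on average in AAV-Notum, and none passed adjustment. The promoters of 3 of them are shown because these are the genes with the largest differences, in windows from 250 bases before to 50 bases after the start, from RefSeq on GRCm38.p6 and 5′ to 3′ on the strand of the gene. Hoxc5 had no entry. Capitals mark matches to CTTTGAA or CTTTGAT on either strand, the letters that TCF/LEF factors of the Wnt pathway bind. The windows are chr2:74704365-74704664 (plus strand) for Hoxd8, chr1:120602237-120602536 (plus strand) for En1 and chr6:52208623-52208922 (minus strand) for Hoxa6.
Hoxd8: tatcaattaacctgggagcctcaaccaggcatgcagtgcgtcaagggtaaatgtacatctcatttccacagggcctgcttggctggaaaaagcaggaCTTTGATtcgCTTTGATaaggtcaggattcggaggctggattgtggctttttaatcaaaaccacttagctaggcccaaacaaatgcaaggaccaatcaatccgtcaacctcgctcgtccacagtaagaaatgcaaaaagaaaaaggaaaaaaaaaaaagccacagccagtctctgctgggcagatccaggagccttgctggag
En1: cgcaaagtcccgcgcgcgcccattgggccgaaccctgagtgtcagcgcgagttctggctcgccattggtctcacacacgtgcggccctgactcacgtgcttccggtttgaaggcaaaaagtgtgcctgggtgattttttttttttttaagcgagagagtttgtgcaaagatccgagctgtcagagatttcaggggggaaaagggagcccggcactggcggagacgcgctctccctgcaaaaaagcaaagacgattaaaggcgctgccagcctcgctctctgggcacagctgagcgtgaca
Hoxa6: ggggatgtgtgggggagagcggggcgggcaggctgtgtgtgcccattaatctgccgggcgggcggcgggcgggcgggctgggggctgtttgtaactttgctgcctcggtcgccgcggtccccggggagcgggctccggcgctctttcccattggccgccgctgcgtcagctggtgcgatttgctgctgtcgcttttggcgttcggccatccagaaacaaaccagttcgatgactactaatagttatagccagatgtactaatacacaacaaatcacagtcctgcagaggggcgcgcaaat
In the Hoxd8 window 2 matches start 153 and 143 bases before the start, and the En1 and Hoxa6 windows hold 0. Of 26 windows that matched 24 of the 43 members, 3 held a match (Hoxd8, Hoxa11 and Hoxd12), and 8.65% of all 32851 windows of this length did. A match is a run of letters and not a measured binding site.

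Hoxd8 (chr2:74704615-74707933), the higher of the HoxD genes that were tested, ranged from 8.87 to 20.6 CPM with a median of 16.2 in AAV-GFP, and from 6.86 to 16.7 CPM with a median of 10.01 in AAV-Notum. The ranges overlapped, with 2 of the AAV-Notum values under the lowest AAV-GFP value. Its log2 fold change was -0.59 ± 0.24 (SE), with p = 0.0297 and adjusted p = 0.305 by edgeR and p = 0.0519 by the exact permutation test. Hoxc5 (chr15:102967443-103017429) ranged from 8.19 to 20.1 CPM with a median of 13.3 in AAV-GFP, and from 5.59 to 12.8 CPM with a median of 8.88 in AAV-Notum. Each of the 6 AAV-Notum values was under the mean of AAV-GFP, but 2 AAV-GFP mice were also low, and the ranges overlapped. Its log2 fold change was -0.61 ± 0.25 (p = 0.0326, adjusted p = 0.312 by edgeR, exact permutation p = 0.0801). Of its exon bases 5.37% are shared with Hoxc10 on the same strand.

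En1 (chr1:120602418-120607992) ranged from 2.34 to 7.73 CPM with a median of 4.42 in AAV-GFP, and from 2.15 to 4.596 CPM with a median of 2.87 in AAV-Notum. Each of the 6 AAV-Notum values was under the mean of AAV-GFP, and the lowest AAV-GFP mouse lay among them. Its log2 fold change of -0.65 ± 0.28 was the lowest of all members (p = 0.0365, adjusted p = 0.325 by edgeR, exact permutation p = 0.0649). That value was -0.33 with RNA integrity and -0.24 with the mean of the lymphoid markers as a covariate. Hoxa6 (chr6:52206288-52208722) had few reads, 14 to 41 per mouse. It ranged from 1.11 to 2.298 CPM with a median of 1.51 in AAV-GFP, and from 0.838 to 1.75 CPM with a median of 1.04 in AAV-Notum. Of the AAV-Notum values, 4 lay under the lowest AAV-GFP value and that of AAV-Notum-2042 was high. Its log2 fold change was -0.53 ± 0.24 (p = 0.0434, adjusted p = 0.336 by edgeR, exact permutation p = 0.0476).

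These 4 calls at an unadjusted p depended on single mice, while the log2 fold changes kept their sign when each mouse was left out. They ran from -0.78 to -0.50 for Hoxd8, -0.74 to -0.47 for Hoxc5, -0.82 to -0.45 for En1 and -0.70 to -0.40 for Hoxa6. Under the other settings, covariates included, the values smallest in size were -0.29 for Hoxd8, -0.14 for Hoxc5, -0.24 for En1 and -0.17 for Hoxa6. Without AAV-GFP-2011, AAV-GFP-2014, AAV-Notum-2031, AAV-Notum-2032 or AAV-Notum-2034, 0 members were lower at this threshold, with 7%, 6.79%, 6.67%, 7.07% and 7.11% of all genes lower in these fits in that order. Without AAV-Notum-2041 there was 1 (8.58% of all genes) and without AAV-Notum-2033 there were 2 (8.23%). Without AAV-GFP-2022 there were 6 (13.6%), and without AAV-Notum-2042 there were 8 (13.4%), which added Hoxa3, Hoxa5, Tbx3 and Tbx15. Without AAV-GFP-2013 there were 3 (11.4%) and without AAV-GFP-2021 there were 4 (9.18%). The share of all genes thus also moved with the mouse left out.

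**Figure D4:**
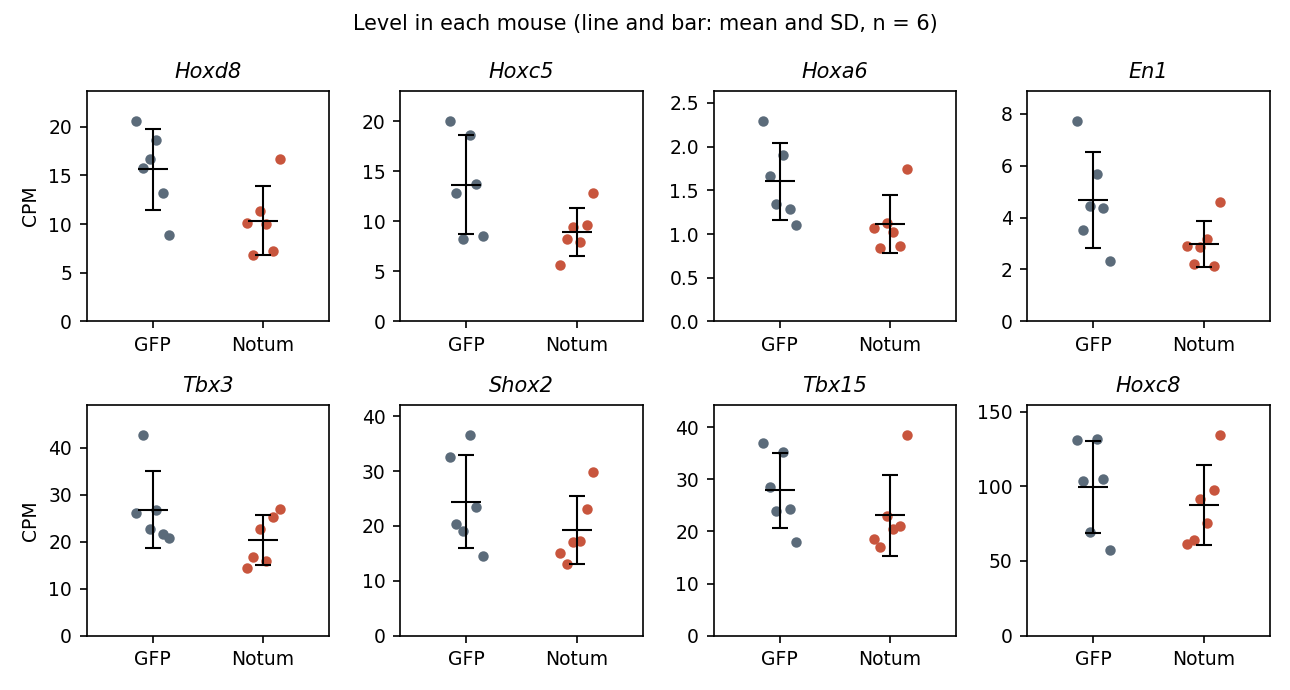
Level of 8 members in each mouse in CPM (points), with the mean and SD of the 6 mice per group, on axes that start at 0. In every panel the AAV-GFP and AAV-Notum points overlap, with AAV-Notum-2042 the highest point of its group for Tbx15 at 38.5 CPM and AAV-GFP-2012 the highest of its group for Tbx3 at 42.8 CPM.

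Tbx3 (chr5:119670669-119684724) ranged from 20.7 to 42.8 CPM with a median of 24.4 in AAV-GFP, and from 14.5 to 27.0 CPM with a median of 19.7 in AAV-Notum. Of the AAV-Notum values, 3 lay under the lowest AAV-GFP value. The log2 fold change was -0.40 ± 0.21 (exact permutation p = 0.104, adjusted p = 0.399 by edgeR). When each mouse was left out it ran from -0.50 to -0.21, the latter without AAV-GFP-2012. Shox2 (chr3:66971727-66981771) ranged from 14.5 to 36.6 CPM with a median of 21.9 in AAV-GFP and from 12.99 to 29.8 CPM with a median of 17.2 in AAV-Notum. Its log2 fold change of -0.35 ± 0.25 gave an exact permutation p of 0.242 and adjusted p = 0.490 by edgeR. It ran from -0.52 to -0.20 when each mouse was left out. Tbx15 (chr3:99240381-99354259) ranged from 18.04 to 36.9 CPM with a median of 26.5 in AAV-GFP and from 17.0 to 38.5 CPM with a median of 20.7 in AAV-Notum. The AAV-Notum mice of Tbx15 held both the lowest and the highest value of the study. Its log2 fold change was -0.27 ± 0.22 (exact permutation p = 0.234, adjusted p = 0.520 by edgeR) and ran from -0.48 to -0.18 when each mouse was left out.

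The most abundant genes of HoxC and HoxA differed between the groups by less than 1 standard error. Hoxc8 (chr15:102990607-102994111), read 931 to 2338 times per mouse, ranged from 57.3 to 131 CPM with a median of 104 in AAV-GFP and from 61.7 to 134 CPM with a median of 83.5 in AAV-Notum. Its log2 fold change was -0.19 ± 0.24 (adjusted p = 0.670 by edgeR) and ran from -0.35 to -0.093 when each mouse was left out. Hoxc10 (chr15:102966796-102971893) ranged from 19.3 to 32.6 CPM with a median of 27.7 in AAV-GFP and from 20.2 to 40.2 CPM with a median of 24.3 in AAV-Notum, with a log2 fold change of 0.01 ± 0.21. Hoxa7 (chr6:52214491-52221854) had medians of 31.6 CPM (17.4 to 36.1) in AAV-GFP and 26.1 CPM (19.95 to 36.6) in AAV-Notum, with a log2 fold change of -0.12 ± 0.20. That value ran from -0.23 to -0.048 when each mouse was left out. For each of the 3 genes the ranges of the groups overlapped over most of their length.

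Hoxa9 (chr6:52223100-52231089) had medians of 22.4 CPM (15.7 to 37.0) in AAV-GFP and 21.4 CPM (15.9 to 32.8) in AAV-Notum, with a log2 fold change of -0.05 ± 0.25. Hoxb4 (chr11:96318267-96321638) had medians of 13.5 CPM (10.6 to 16.6) and 13.6 CPM (11.4 to 18.7), with a log2 fold change of 0.08 ± 0.16. Hoxb7 (chr11:96286623-96290162) had medians of 5.25 CPM (5.04 to 6.60) and 6.13 CPM (4.67 to 8.35), with a log2 fold change of 0.19 ± 0.17. That value ran from 0.094 to 0.26 when each mouse was left out. Hoxb7 was also the member whose AAV-GFP mice varied least, with a coefficient of variation of 11.7%. Hoxd9 (chr2:74697727-74700208) had medians of 4.56 CPM (4.09 to 6.09) and 4.96 CPM (4.19 to 6.15), with a log2 fold change of 0.05 ± 0.13. All 4 genes thus overlapped between the groups.

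Members were high or low in the same mice, in both groups. For each mouse the median deviation of the 29 members from their 12-mouse means (log2 CPM) was taken. It was highest in AAV-Notum-2042 at 0.44, where all 29 members were above their mean, and then in AAV-GFP-2012 at 0.36, AAV-GFP-2011 at 0.32 and AAV-GFP-2014 at 0.29. It was lowest in AAV-Notum-2031 and AAV-GFP-2022, both at -0.44, where 0 members were above their mean. The share of all genes above their mean in each mouse was not taken, so this is not shown to be particular to the members. The summed Hox level was 178, 160.3, 171 and 164 RPKM in the first 4 mice in that order and 93.7 and 92.0 RPKM in the last pair.

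The same 4 mice had the highest mean level of 8 adipocyte markers (Adipoq, Lep, Plin1, Cidec, Fabp4, Lipe, Pnpla2 and Pparg), at 11.2 to 11.4 log2 CPM against 10.2 to 11.0 in the other 8 mice. They also had the lowest mean of the 15 lymphoid markers, at -0.58 to 5.01 log2 CPM against 6.08 to 7.07. Between groups, 0 of 8 adipocyte markers passed an unadjusted p under 0.05 (9.54% of all genes lower and 4.64% higher), with 7 of 8 values below 0 (87.5% beside 48.8% of all genes) and summed levels of 24458 to 41151 CPM in AAV-GFP and 21136 to 48031 CPM in AAV-Notum. Of the 15 lymphoid markers 0 passed, all 15 values were above 0 (0% below 0 beside 48.8% of all genes), and the sums were 9.95 to 1781 CPM in AAV-GFP and 553 to 2388 CPM in AAV-Notum. No marker of either list was at 0 in all mice.

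**Figure D5:**
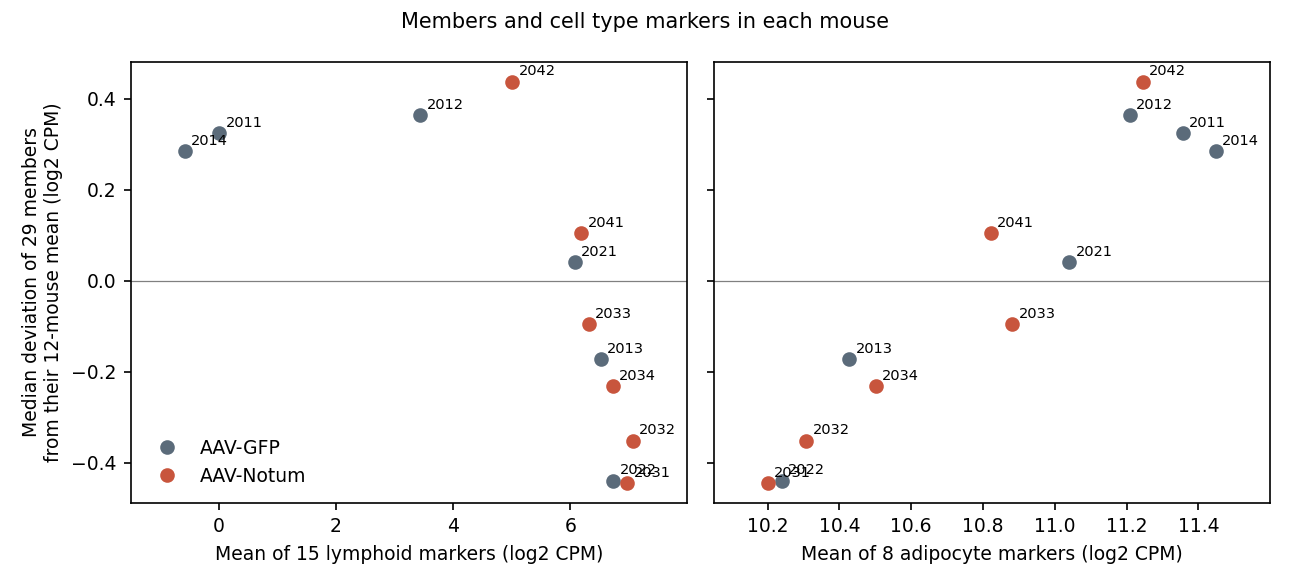
Median deviation of the 29 members in each mouse from their 12-mouse means (vertical, log2 CPM) against the mean of 15 lymphoid markers (left) and of 8 adipocyte markers (right), both in log2 CPM, with each mouse named by its number. AAV-Notum-2042, AAV-GFP-2012, AAV-GFP-2011 and AAV-GFP-2014 lie at the top in both panels, and AAV-Notum-2031 and AAV-GFP-2022 at the bottom.

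Fits with these markers as a covariate gave other values. With the lymphoid mean as a covariate, the median log2 fold change of the members was 0.18, 0 members were lower at an unadjusted p under 0.05 (background 4.88%) and 1, Hoxb4, was higher (background 4.36%). With the adipocyte mean as a covariate, chosen after seeing the data, the median was 0.09. The standard error of Hoxc8 was then 0.053 in place of 0.24, and that of Hoxa7 0.072 in place of 0.20. Standard errors over all genes were not compared. In this fit 1 member, Hoxc5, was lower at an unadjusted p under 0.05 (background 8.08%), with a log2 fold change of -0.28 ± 0.11. Hoxa4, Hoxc8, Hoxc9 and Hoxc10 were higher (background 8.32%), from 0.12 for Hoxc8 to 0.42 for Hoxa4. Of the members 0 passed adjustment, the smallest adjusted p being 0.232 by edgeR, while of all 15585 genes 76 were lower and 10 higher. A reference also chosen after seeing the data was the median Hox gene of each mouse. It is made from the Hox genes themselves and centres them, so calls against it cannot show a shift of the whole set. Nearly all background genes did not form it. Relative to it, Hoxc5 was lower (background 2.68%) and Hoxa4, Hoxb3, Hoxb4 and Hoxc10 were higher (background 3.55%) at an unadjusted exact permutation p under 0.05. By the same test without that reference, Hoxa6 was lower (background 7.79%) and 0 members were higher (background 5.39%). With RNA integrity as the covariate, 0 members were lower (background 5.95%). Without AAV-GFP-2011 and AAV-GFP-2014, the median was 0.015 and 0 members were lower (background 4.95%). Without AAV-GFP-2012, the mouse with the other RNA isolation date, 3 were lower (En1, Hoxc5 and Hoxd8, background 7.11%).

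Other cell types were followed with their own marker lists. Of 10 stromal progenitor and fibroblast markers, 4 were lower at an unadjusted p under 0.05 (40% beside 9.54% of all genes) and 0 higher (4.64% of all genes). The list median was -0.28, with 3 of the 10 values above 0 (Dpp4 at 0.65, Ly6a at 0.28 and Thy1 at 0.71), and sums of 2560 to 4294 CPM in AAV-GFP and 2248 to 2834 CPM in AAV-Notum. Skeletal muscle markers summed to 8.19 to 761 CPM in AAV-GFP and 7.30 to 3591 CPM in AAV-Notum, the highest sum being that of AAV-Notum-2042, the mouse with the highest Tbx15. Hepatocyte markers summed to 46.7 to 4989 CPM in AAV-GFP and to between 21.4 and 717 CPM in AAV-Notum. Of 7 tested, 2 were lower at an unadjusted p under 0.05 (28.6% beside 9.54% of all genes), and all 7 values were below 0. At that threshold 1 of 6 macrophage markers (16.7%) and 1 of 5 endothelial markers (20%) were lower, with 0 higher in both lists. Of 5 Schwann cell markers 0 passed, with all 5 values below 0 (48.8% of all genes). The 8 epidermal keratinocyte markers summed to 4.99 to 16.9 and 6.83 to 11.1 CPM, with Dsg3 at 0. Most of this was Trp63, at means of 8.71 CPM in AAV-GFP and 6.42 CPM in AAV-Notum. Over all 12 mice Krt5 had 1 read, Krt14 had 8, Krt1 had 4 and Krt15 had 1. The part of these cell types in the member differences was not tested.

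Hox proteins bind DNA with TALE homeobox cofactors of the Pbx, Meis and Pknox families. Of 9 such genes tested, at an unadjusted p under 0.05 there were 0 lower (9.54% of all genes) and 1 higher (11.1% beside 4.64%), with a median log2 fold change of -0.01. That gene, Pbx2, was also the highest of the list at 18.5 RPKM, with 63.9 ± 2.59 CPM in AAV-GFP and 71.0 ± 5.72 in AAV-Notum (SD, n = 6) and a log2 fold change of 0.15 ± 0.065 (exact permutation p = 0.0238, adjusted p = 0.327 by edgeR). Meis3 had the smallest p among those below 0, at -0.21 ± 0.10 (exact permutation p = 0.0325, adjusted p = 0.362 by edgeR).

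Polycomb and Trithorax proteins keep Hox genes silent or active. Of 18 chromatin regulators of Hox genes 15 were tested, and the cluster inducers Cdx1, Cdx2 and Cdx4 had 0 reads. The list median was 0.13, with 1 lower and 1 higher at an unadjusted p under 0.05 (6.67% each, beside 9.54% and 4.64% of all genes) and 0 after adjustment. Ezh1, a Polycomb methyltransferase, was at 95.7 to 130.1 CPM in AAV-GFP and 88.3 to 95.3 CPM in AAV-Notum, so the groups did not overlap. Its log2 fold change was -0.30 ± 0.079 (adjusted p = 0.152 by edgeR). Its exact permutation p was 0.00216, the smallest that 6 against 6 mice can give. Over all genes, 0.693% likewise had every AAV-Notum mouse below every AAV-GFP mouse. Cbx7 was the highest of the list at 18.1 RPKM, with a log2 fold change of 0.35 ± 0.20.

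Retinoic acid sets the Hox pattern in the embryo. Of 13 genes of its synthesis, breakdown and receptors that were tested, 2 were lower at an unadjusted p under 0.05 (15.4% beside 9.54% of all genes) and 0 higher (4.64% of all genes), with a median of -0.21. Aldh1a1, a retinaldehyde dehydrogenase, was at 113 ± 53.8 CPM in AAV-GFP and 47.3 ± 10.4 CPM in AAV-Notum, with a log2 fold change of -1.26 ± 0.31 (exact permutation p = 0.0173, adjusted p = 0.140 by edgeR). Its AAV-GFP mice ran from 36.1 to 185 CPM and its AAV-Notum mice from 38.0 to 66.2 CPM, so the lowest AAV-GFP mouse lay below all AAV-Notum mice. Rxra, a retinoid X receptor, was the highest of the list at 46.6 RPKM, with a log2 fold change of -0.21 ± 0.14. Rxrb had the smallest p of those above 0, at 0.14 ± 0.085 (exact permutation p = 0.0996).

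Of 44 other patterning factors of depots, limb and body wall, 29 were tested, at an unadjusted p under 0.05 there were 3 lower (10.3% beside 9.54% of all genes) and 1 higher (3.45% beside 4.64%), with 0 after adjustment. The median was -0.28, with 21 of 29 values below 0 (72.4% beside 48.8% of all genes). Twist2, a bHLH factor of dermis and mesenchyme, had the smallest p of the list, with 14.6 ± 1.91 CPM in AAV-GFP and 10.5 ± 2.29 in AAV-Notum and a log2 fold change of -0.48 ± 0.15 (exact permutation p = 0.00866, adjusted p = 0.211 by edgeR). Alx4 was the higher one, at 0.89 ± 0.38 from 0.819 ± 0.346 and 1.54 ± 0.765 CPM (exact permutation p = 0.0455, adjusted p = 0.327 by edgeR). Twist1 was the highest at 14.1 RPKM, with a log2 fold change of -0.29 ± 0.21. Genes known from other depots and limb types were read unevenly. Wt1 and Tcf21, which mark visceral fat, had 14 and 5 reads in all 12 mice, and the hindlimb genes Tbx4 and Pitx1 had 12 and 25. Of genes known from brown fat, Zic1 had 6 reads and Lhx8 had 1219. Tbx5 of the forelimb had 381 reads, Eya1 had 275 and Gata6 had 1893. These genes were picked after their values were seen.

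Of 17 noncoding genes of the Hox clusters with a row of counts, 4 were tested, all with values below 0 (median -0.39, beside 48.8% of all genes below 0) and none at an unadjusted p under 0.05 (9.54% of all genes lower). Hoxd3os1 had the smallest p, at -0.66 ± 0.36 (exact permutation p = 0.0931, adjusted p = 0.410 by edgeR), and Hotairm1 was the highest at 2.37 RPKM. Hotair had 8 reads and Hottip had 0, next to the silent posterior ends of HoxC and HoxA.

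Antisense genes overlap some members, and whether reads were counted by strand is not given in the sources used here, so reads of a gene and its antisense partner may be mixed. The deposited raw and normalized tables differed for such genes. Reads recovered from the normalized table were 0.419 to 0.839 times those of the raw table for the 5 tested members with 10% or more of their exon bases under a gene of the opposite strand, which were Hoxb2, Hoxb3, Hoxa7, Hoxa4 and Hoxa3. For the other 24 the ratio ran from 0.871 to 1.23. With the recovered reads the same 4 genes were lower at an unadjusted p under 0.05 (background 9.37%).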

How the data were processed

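RNA of 12 iWAT samples was sequenced by the authors as 50 bp single-end reads and aligned with STAR 2.3.1 to mm10. The deposited raw counts are reads per gene, and the other deposited table holds log2 values that the authors made from scaled counts (a size factor for each mouse) with 1 added. The counting program, its annotation and its use of strand are not given in the sources used here. Whole reads could be recovered from this normalized table for 100% of values (tolerance 0.02).

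From the counts, genes were filtered (filterByExpr, minimum count 10, minimum total 15), scaled by TMM and tested with edgeR 4.0.16 (quasi-likelihood, 15585 genes, Benjamini-Hochberg, all 12 mice, no covariate) in R 4.3.3. The authors used DESeq2, which was an alternative here (1.42.0), as were limma-voom (limma 3.58.1), other scalings and filters, covariates, the recovered reads and leaving out mice. CPM used TMM library sizes, log2 CPM a prior count of 2, and RPKM was computed here over the exon union of GENCODE vM21, which is on GRCm38 and thus the build of mm10. The SE of a log2 fold change is its size over the root of F. Exact permutation tests were two-sided on log2 CPM over 924 assignments, with 0.00216 the smallest p they can give. The edgeR step was tested on simulated data. Members and gene lists were chosen with earlier results of these data known. Named with full values were En1, Tbx3, Tbx15, Shox2, the 2 highest genes per kilobase in each cluster and members with an unadjusted p under 0.05; other lists gave the smallest p in each direction and the highest level. Of the items this rule names, 2 genes are not reported here.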

Additional observations from a re-analysis of the deposited data

Results flagged for a closer look

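In 58 groups of 6 mice (29 members in AAV-GFP and AAV-Notum), 4 had a mouse far from the others by Dixon's test, where chance gives about 2.9 (1 in 20). Hoxa6 was 1.75 CPM in AAV-Notum-2042 and 0.838 to 1.13 CPM in the other AAV-Notum mice. Tbx15 was 38.5 CPM in AAV-Notum-2042 and 17.0 to 22.9 CPM in the others. Tbx3 was 42.8 CPM in AAV-GFP-2012 and 20.7 to 26.7 CPM in the other AAV-GFP mice. Hoxb6 was 9.35 CPM in AAV-GFP-2012 and 3.98 to 5.77 CPM in the others.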

How the results depend on the processing

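No member passed an adjusted p under 0.05 in any fit run, leaving out each mouse in turn included. Of all 15585 genes, 8 were lower and 0 higher at that threshold in the main fit. The most, 402 lower and 94 higher, passed with DESeq2, and without AAV-GFP-2022 it was 146 and 12 of 15707. At such shares, 0 of 29 members says little about these genes. The number of members lower at an unadjusted p under 0.05 (4) was 0 with the lymphoid mean or RNA integrity as a covariate and without AAV-GFP-2011 and AAV-GFP-2014. It was 1 with the adipocyte mean as a covariate, and ran from 0 to 8 when each mouse was left out. The number higher (0) was 1 with the lymphoid mean and 4 with the adipocyte mean as a covariate. Relative to the median Hox gene of each mouse, a reference that centres the Hox genes it is made from, 1 was lower and 4 were higher by the exact permutation test. That test gave 1 lower and 0 higher without the reference. The median log2 fold change of the members (-0.19) was 0.18 with the lymphoid mean, 0.09 with the adipocyte mean and -0.05 with RNA integrity as a covariate, was 0.015 when AAV-GFP-2011 and AAV-GFP-2014 were both left out, and ran from -0.28 to -0.08 when each mouse was left out. With the other tools, scalings, filters and reads the counts stayed within 1.5 times.

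Single genes changed sign as follows. With the lymphoid mean as a covariate the log2 fold change was 0.090 for Tbx15, 0.092 for Shox2, 0.18 for Hoxa7, 0.26 for Hoxa9 and 0.21 for Hoxc8. With the adipocyte mean as a covariate it was 0.13 for Hoxa7, 0.16 for Hoxa9 and 0.12 for Hoxc8. Without AAV-GFP-2011 and AAV-GFP-2014 it was 0.022 for Hoxa7, 0.025 for Hoxa9 and 0.056 for Hoxc8. Relative to the median Hox gene of each mouse, a reference chosen after seeing the data, it was 0.14 for Hoxa7, 0.20 for Hoxa9 and 0.063 for Hoxc8. That reference is made from the Hox genes themselves and centres them, so these signs cannot show a difference between the groups. For Hoxa9 the log2 fold change was 0.0077 with RNA integrity as a covariate and 0.13 without AAV-GFP-2012, and for Hoxc10 it was -0.019 with limma-voom. When each mouse was left out, the value ran from -0.19 to 0.13 for Hoxa9, from -0.0092 to 0.15 for Hoxb4, from -0.14 to 0.083 for Hoxc10 and from -0.016 to 0.13 for Hoxd9. None of these genes had an adjusted p under 0.05 in the fits across all genes.

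No paired analysis was possible because the groups share no replicate numbers. The number of members below 0 (21 of 29) was 20 with library totals alone and 21 with RLE size factors, but 18 with RNA integrity, 12 with the adipocyte mean and 8 with the lymphoid mean as a covariate. It was 13 of 30 when AAV-GFP-2011 and AAV-GFP-2014 were both left out, 16 of 30 without AAV-GFP-2012 and 27 of 30 without AAV-Notum-2042. The cause of these differences was not tested. Hoxa2 with 11 to 44 reads per mouse, Hoxb9 with 13 to 43 and Hoxa6 with 14 to 41 had the fewest reads of the members tested, and counting error limits their differences most.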
